A study of Mus musculus with 2 samples.

Results

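The proteasome genes described here are the 43 measured genes, of 19465 in all, whose symbols begin with Psma, Psmb, Psmc, Psmd or Psme. Of these, 29 are standard members of the 26S proteasome, 5 form the immune subset (Psmb8, Psmb9, Psmb10, Psme1 and Psme2) and 9 are other genes that the symbol rule takes in. The 9 are the tissue-restricted subunits Psma8 and Psmb11, the activators Psme3 and Psme4, the assembly chaperones Psmd5, Psmd9 and Psmd10, the PA28 beta-like gene Psme2b, and Psmc3ip, which is a recombination factor and no proteasome subunit. Skin came from hairless SKH-1 mice, all female and 10 to 12 weeks old, and was profiled with Visium, which counts transcripts at barcoded spots under a tissue section. The 4 groups were untreated skin (control), skin exposed to ultraviolet radiation (UVR), UVR skin treated with 0.1% retinol, and UVR skin treated with 0.03% 9-cis HPR, called HPR below. Each group was 1 section. The UVR dose, the vehicle and the number of animals behind a section are not given in the sources used here.

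The control and UVR sections shared 1 capture area and the retinol and HPR sections the other, so a difference between a treated section and the UVR section cannot be told apart from a difference between areas. The labels place each section as upper or lower on its area. Upper was read as the smaller row of the tissue image. The spot grid runs the opposite way, and reading it instead exchanges control with UVR and retinol with HPR. Under that reading every ratio of UVR over control and of HPR over retinol below is inverted, so no direction in these comparisons holds under both readings. Retinol over UVR becomes what is printed here as HPR against control, and HPR over UVR becomes retinol against control. For these comparisons the values under that reading are given beside the main whole-section differences, and layer values were not recomputed under it. With 1 section per group no spread between animals could be measured and no p-value was computed. Every interval is an exact 95% interval that covers counting error only.

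Spots with at least 200 unique molecular identifiers (UMIs, counted transcript molecules) were kept, which left 339 to 647 spots a section. The control section was the shallowest, with 326095 UMIs against 1249928 to 2558616 in the other sections. Proteasome genes took 0.131% of all UMIs in the control section, 0.148% in the UVR section, 0.127% with retinol and 0.122% with HPR. Levels are given as CPM, a gene's share of all UMIs of a whole section or tissue layer scaled to parts in 10 to the power 6, and not per spot. The libraries count ligated probe pairs, so levels of different genes depend on their probes and are not compared. Fewer cells of a type and less RNA per cell cannot be told apart in such sums.

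The proteasome degrades proteins tagged with ubiquitin. Its 20S core is a barrel of alpha and beta subunits, and 3 of the beta subunits cut: Psmb5 (chymotrypsin-like), Psmb6 (caspase-like) and Psmb7 (trypsin-like). The 19S cap of Psmc ATPases and Psmd subunits recognises ubiquitin, unfolds the substrate and feeds it into the core. Interferon gamma induces Psmb8, Psmb9 and Psmb10, which replace Psmb5, Psmb6 and Psmb7 in new particles, and the PA28 activator made of Psme1 and Psme2. This immunoproteasome favours peptides that fit MHC class I molecules. In skin it is known from immune cells and from keratinocytes exposed to interferon.

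Psmb8 and Psmb9 are neighbours in the MHC region of chromosome 17 (GRCm38.p6, positions 34198195 to 34201454 and 34182030 to 34187330). Psme1 and Psme2 are neighbours on chromosome 14, at 55578494 to 55581527 and 55587440 to 55591101. The standard catalytic genes are spread over chromosome 14 (Psmb5), chromosome 11 (Psmb6) and chromosome 2 (Psmb7). Promoter sequence was searched because Psmb8 differed in the opposite direction from Psmb6 and Psmc5 in both treated sections. RefSeq promoter windows of GRCm38.p6 were found for 37 of the 43 members, not for Psma8, Psmb2, Psmb7, Psmc3, Psmd3 and Psmd7. The 250 bases upstream of each start site were searched on both strands for GAAA and GAAA with 2 bases between them (the core bound by interferon regulatory factors) and for TGACNNNGC or TGAGNNNGC (the antioxidant response element bound by NRF factors). A match describes the letters and does not show binding.

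The sequences shown are those of Psmb8, Psmb6 and Psmc5, all on the plus strand, 5′ to 3′. Among the members with enough UMIs to be tested against UVR, Psmb8 stood highest in both treated sections, and Psmb6 and Psmc5 lowest. Capitals mark the matched antioxidant motif in Psmb6. Psmb8 and Psmc5 had no match of either motif.
Psmb8, chr17:34198095-34198194: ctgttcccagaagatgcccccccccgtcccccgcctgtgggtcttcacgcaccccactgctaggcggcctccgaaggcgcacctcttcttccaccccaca
Psmb6, chr11:70525327-70525356: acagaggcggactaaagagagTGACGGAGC
Psmc5, chr11:106256085-106256184: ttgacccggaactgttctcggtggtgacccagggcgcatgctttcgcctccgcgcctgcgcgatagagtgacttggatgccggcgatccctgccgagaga

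The interferon regulatory factor core was found in Psmb3, Psmd4 and Psmd9 (8.11% of members, against 2.98% of all 32851 promoter windows) and in no immune member. The antioxidant motif lay 9 to 1 bases upstream of the start site used for the Psmb6 window. The gene coordinates instead start Psmb6 at 70525324, before the stretch shown, so by them the motif lies within the gene. The antioxidant motif was found in 12 members (32.4%, against 23% of all windows), among them the standard catalytic genes Psmb6 and Psmb5. For both motifs a member counts if any of its windows matches, while the background is a share of single windows. A gene with several windows has more room to match, so these shares are not strictly alike.

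Across the 4 sections, 18 members had 100 UMIs or more, 16 had 20 to 99, and 9 had fewer than 20. No UMI of Psma8 (a testis subunit) or Psmb11 (the thymus subunit) was counted, which allows up to 9.2 CPM in the control section and 1.17 to 2.4 CPM in the others. Psmd2, Psmd3 and Psmd4 together held 44.8% of the 7537 proteasome UMIs, so any sum over the standard members leans on these 3 cap genes. Psme2b (9 UMIs) resembles Psme2, and counts of the pair are uncertain.

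**Figure D1:**
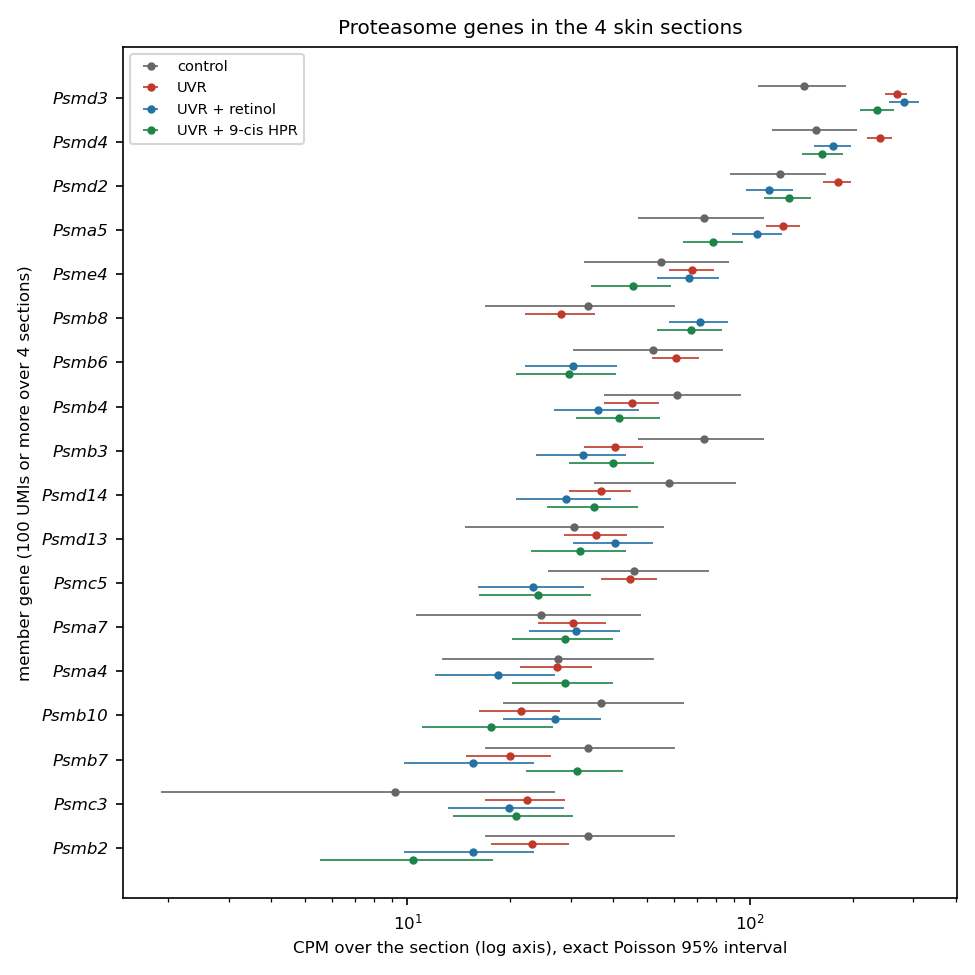
Level of each of the 18 members with 100 UMIs or more, in CPM over the section on a log axis, with exact Poisson 95% intervals and 1 colour per section. Psmb8 sits at 71.4 and 67.2 CPM in the treated sections, to the right of the UVR section at 28.1 CPM, while Psmb6 and Psmc5 sit to the left of theirs.

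Among the immune members, Psmb8 had the most UMIs, and it alone had enough to be tested against UVR over whole sections. It was counted 11 times in the control section, 72 times with UVR, 101 times with retinol and 84 times with HPR, which is 33.7, 28.1, 71.4 and 67.2 CPM. Both treated sections were thus above both untreated ones. Psmb8 was 2.54-fold higher with retinol than with UVR alone (1.86 to 3.48) and 2.39-fold higher with HPR (1.72 to 3.32). UVR over control was 0.834 (0.44 to 1.75), and HPR over retinol was 0.942 (0.696 to 1.27). Both of these intervals include 1.

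When each section was cut into 4 strips from left to right, Psmb8 stood at 27, 26.7, 34.2 and 23.7 CPM in the UVR strips. The retinol strips held 82.4, 72.8, 50.3 and 82.2 CPM, and the HPR strips 65.4, 64.8, 49.8 and 90.5 CPM. No treated strip fell within the UVR range. The control strips held 60.2, 29.2, 23.7 and 22.2 CPM, a range that overlapped the treated strips. Strips of 1 section are not replicates of the condition. In the outer layer alone (defined below) the treated sections were 2.53-fold (1.81 to 3.54) and 2.33-fold (1.64 to 3.33) higher. With the sections read by the spot grid, the log2 ratio of Psmb8 was 0.99 for retinol over UVR and 1.08 for HPR over UVR, against 1.34 and 1.26, so that Psmb8 was higher with either treatment under both readings. The control section here then stands for UVR, with 11 UMIs of Psmb8 and strips that overlap the treated ones.

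**Figure D2:**
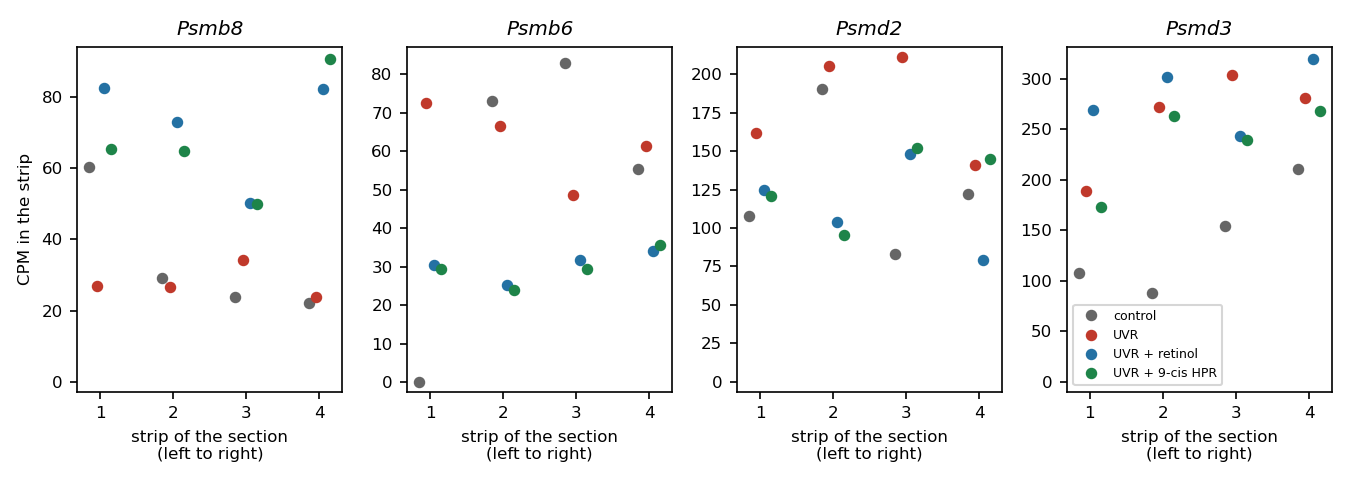
Level of Psmb8, Psmb6, Psmd2 and Psmd3, in CPM, in the 4 strips of each section, with 1 point per strip. The treated strips lie above the UVR strips for Psmb8 and below them for Psmb6, while for Psmd3 the retinol strips (244 to 320 CPM) overlap the UVR strips (189 to 304 CPM). The range of the control strips overlaps the treated strips for Psmb8 (22.2 to 60.2 CPM) and spans them for Psmb6 (0 to 83 CPM).

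Psmb9, the immune counterpart of Psmb6, was sparse, with 1, 8, 13 and 6 UMIs in the control, UVR, retinol and HPR sections (3.07, 3.13, 9.19 and 4.8 CPM). Retinol over UVR was 2.94 (1.13 to 8.18) and HPR over UVR 1.54 (0.439 to 5.05). Psmb10, the counterpart of Psmb7, did not follow Psmb8 over whole sections. Its 12, 55, 38 and 22 UMIs gave 36.8, 21.5, 26.9 and 17.6 CPM. Retinol over UVR was 1.25 (0.804 to 1.92) and HPR over UVR 0.819 (0.475 to 1.36). In the outer layer Psmb10 was higher with retinol (27.3 CPM) than with UVR (15.9 CPM), as given below, and stood at 18.3 CPM with HPR.

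The PA28 genes were counted rarely. Psme1 stood at 27.6, 11.3, 22.6 and 18.4 CPM (9, 29, 32 and 23 UMIs), lowest in the UVR section. It was 2.44-fold lower with UVR than in control skin (1.01 to 5.28) and 2-fold higher with retinol than with UVR (1.17 to 3.42), and HPR over UVR was 1.62 (0.897 to 2.91). Psme2 stood at 6.13, 5.47, 6.36 and 6.4 CPM from 2, 14, 9 and 8 UMIs, and its interval for each comparison included 1. With the sections read by the spot grid, the log2 ratio of Psme1 turned over, to 1.28 for UVR over control, -0.58 for retinol over UVR and -0.29 for HPR over UVR.

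Summed, the 5 immune members stood at 107 CPM in the control section (74.8 to 149), 69.6 with UVR (59.7 to 80.6), 136 with retinol (118 to 157) and 114 with HPR (96.4 to 135). The UVR section was thus the lowest. The sum was 1.54-fold lower with UVR than in control skin (1.04 to 2.23), 1.96-fold higher with retinol than with UVR (1.59 to 2.42) and 1.64-fold higher with HPR (1.31 to 2.06). HPR over retinol was 0.839 (0.671 to 1.05). Without Psmb8 the sum was 1.57-fold higher with retinol (1.17 to 2.09), and HPR over UVR was 1.14 (0.814 to 1.58), so the HPR difference rested on Psmb8. Under the spot-grid reading the control section stands for UVR. Without Psmb8 control stood at 73.6 CPM (47.2 to 110), above retinol (65) and HPR (47.2), so both of these ratios then turn over. The order of UVR and control also depended on the layer and on which end of the area is upper, as given below.

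Markers of macrophages and dendritic cells were, like the immune members, lowest in the UVR section, but unlike them highest in control. Their 10 genes summed to 1346 CPM in control, 172 with UVR, 551 with retinol and 595 with HPR, and their part in the immune result was not tested. Cd74 (the MHC class II chaperone) and H2-Ab1 (a class II chain) were 2.69-fold (2.2 to 3.28) and 5.23-fold (4.27 to 6.43) higher with retinol than with UVR. Read by the spot grid, the list turned over in both treatment comparisons, to 0.442 with retinol (0.392 to 0.499) and 0.409 with HPR (0.364 to 0.461), as did the T and NK cell list. The defining macrophage marker Adgre1 was at 0 in 3 of the sections and had 1 UMI with UVR, and Lyz2 was at 0 in the UVR and HPR sections. The 10 T and NK cell genes held 8 to 22 UMIs a section (3.13 to 33.7 CPM), with Cd8a and Trdc at 0 throughout. In the outer layer the macrophage and dendritic list stood at 1080, 128, 481 and 500 CPM in the same order. The outer immune sum gave 1.29 for UVR over control (0.68 to 2.74), from 10 control UMIs, so its direction there is uncertain.

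Of the standard catalytic subunits, Psmb6 was lower with both treatments. The sum of the 3 was 1.71-fold lower with retinol than with UVR (1.31 to 2.27), and HPR over UVR was 0.78 (0.6 to 1.01). Psmb6 had 17, 156, 43 and 37 UMIs in the control, UVR, retinol and HPR sections, or 52.1, 61, 30.4 and 29.6 CPM. Both treated sections were below both others. Psmb6 was 2.01-fold lower with retinol than with UVR (1.42 to 2.88) and 2.06-fold lower with HPR (1.43 to 3.03). The UVR strips spanned 48.7 to 72.7 CPM, above the retinol strips (25.2 to 34) and the HPR strips (23.9 to 35.6). The control strips ran from 0 to 83 CPM, a range that holds all of these. The direction was the same with the sections read by the spot grid, at -0.82 and -0.78 on the log2 scale, but as ratios of 0.568 (0.312 to 1.08) and 0.583 (0.326 to 1.09) the intervals then include 1.

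Psmb5 was rare (4, 16, 7 and 9 UMIs; 12.3, 6.25, 4.95 and 7.2 CPM), and no difference was detectable at this depth. Psmb7 stood at 33.7, 19.9, 15.5 and 31.2 CPM from 11, 51, 22 and 39 UMIs. It was 2.01-fold higher with HPR than with retinol (1.16 to 3.55). That ratio rests on 61 UMIs. HPR over UVR of Psmb7 was 1.57 (1 to 2.42), and turned over under the spot-grid reading, at -1.12 on the log2 scale.

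Setting each immune gene against the partner it replaces removes the scaling of a section. The share itself depends on the probes, and only its change between sections is compared. Psmb8, Psmb9 and Psmb10 made up 42.9% of the UMIs of the 6 catalytic genes in the control section, 37.7% with UVR, 67.9% with retinol and 56.9% with HPR. This pooled share leans on Psmb8 and Psmb6, which are not partners. Psmb8 gave 72 of 135 immune UMIs with UVR and 101 of 152 with retinol. Psmb6 gave 156 of 223 standard UMIs with UVR and 43 of 72 with retinol. The odds of an immune over a standard catalytic UMI were 3.48-fold higher with retinol than with UVR (2.42 to 5.04) and 2.17-fold higher with HPR (1.5 to 3.15). They were lower with HPR than with retinol, at an odds ratio of 0.625 (0.411 to 0.947), and UVR over control was 0.808 (0.44 to 1.5). Read by the spot grid, the odds ratios were 1.75 for retinol over UVR (0.925 to 3.36), 2.8 for HPR over UVR (1.48 to 5.37) and 1.6 for HPR over retinol (1.06 to 2.43). The retinol and HPR ratios share the UVR section, so they are not independent of each other.

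By pair, Psmb9 to Psmb6 gave an odds ratio of 5.83 for retinol over UVR (2.09 to 17.4) and 3.14 for HPR over UVR (0.844 to 11.1). Psmb8 to Psmb5 gave 3.19 (1.17 to 9.65) and 2.07 (0.802 to 5.65). Psmb10 to Psmb7 gave 1.6 (0.799 to 3.24) and 0.525 (0.259 to 1.05). For this last pair the share of Psmb10 was 63.3% with retinol and 36.1% with HPR, an odds ratio for HPR over retinol of 0.33 (0.145 to 0.729). Each pair's HPR over UVR interval includes 1, and a difference between pairs was not tested. Read by the spot grid, Psmb10 to Psmb7 gave 0.521 for retinol over UVR (0.175 to 1.53) and 3.03 for HPR over retinol (1.37 to 6.87). For retinol and HPR over UVR, Psmb8 to Psmb5 then gave 3.34 (0.644 to 14.8) and 5.14 (0.951 to 24.4). Psmb9 to Psmb6 gave 2.72 (0.293 to 134) and 5.06 (0.658 to 231). Both pairs kept their direction, but with intervals that include 1.

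The other core and cap subunits were measured less evenly. The 29 standard members summed to 1113 CPM in the control section (1002 to 1234), 1306 with UVR (1262 to 1351), 1049 with retinol (997 to 1104) and 1030 with HPR (975 to 1088). The UVR section was the highest. The sum was 1.17-fold higher with UVR than in control skin (1.05 to 1.31), 1.24-fold lower with retinol than with UVR (1.17 to 1.32) and 1.27-fold lower with HPR (1.19 to 1.35). HPR over retinol was 0.982 (0.911 to 1.06). These steps are far smaller than that of Psmb8. With the sections read by the spot grid, UVR over control gave -0.23 on the log2 scale for the standard sum and 0.63 for the immune sum. Retinol and HPR over UVR then gave -0.11 and -0.08 for the standard sum and 0.09 and 0.35 for the immune sum.

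The higher sum with UVR rested on 3 cap genes. Psmd2 (a scaffold that binds ubiquitin carriers), Psmd3 (a lid subunit) and Psmd4 (a ubiquitin receptor) were 1.63-fold higher with UVR than in control skin when summed (1.37 to 1.95). The 26 standard members without them gave 0.894 (0.777 to 1.03). The 3 measured beta subunits that do not cut, Psmb2, Psmb3 and Psmb4, were 1.55-fold lower with UVR (1.14 to 2.08). Psmb1 is not among the measured genes. Against UVR, by contrast, the treated sections were lower for these 3 cap genes (0.832 and 0.767) and for the 26 others (0.772 and 0.813). Under the spot-grid reading the control section stands for UVR. The 3 cap genes then turn over, with control at 423 CPM below retinol (573) and HPR (529). The 26 others do not, with control at 690 CPM above retinol (476) and HPR (502).

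In UVR over control, 11 members reached 100 UMIs over both sections. Of these 3 were at least 1.5-fold higher (Psma5, Psmd3 and Psmd4), where 24.4% of all 2510 tested genes were, and 2 were at least 1.5-fold lower (Psmb3 and Psmd14), where 16.8% were. Both shares are near the background. The median log2 ratio was 0.23 for the 11 members and 0.09 for all genes. Psmd3 stood at 144 CPM in control, 269 with UVR, 283 with retinol and 236 with HPR, 1.86-fold higher with UVR than control (1.39 to 2.56). Control was the lowest of the 4.

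Psmd4 stood at 156, 240, 175 and 163 CPM in the same order, and Psmd2 at 123, 181, 114 and 130 CPM, each highest with UVR. UVR over control was 1.53 for Psmd4 (1.15 to 2.08) and 1.47 for Psmd2 (1.06 to 2.09). Psma5, an alpha-ring subunit, stood at 73.6, 125, 105 and 78.4 CPM, and was 1.7-fold higher with UVR than control (1.13 to 2.7). It too was highest with UVR, and its level with HPR was close to that of control.

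Psmb3, a beta subunit that does not cut, ran the other way, at 73.6, 40.3, 32.5 and 40 CPM, 1.83-fold lower with UVR than in control (1.12 to 2.87). Psmd14, the deubiquitinase of the lid, stood at 58.3, 36.7, 29 and 35.2 CPM, and was 1.59-fold lower with UVR (0.914 to 2.62). Psmb4 stood at 61.3, 45.3, 36 and 41.6 CPM. For these genes the control section was the highest of the 4. Psmd14 passed 1.5-fold with an interval that includes 1, because its control count was 19 UMIs.

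**Figure D3:**
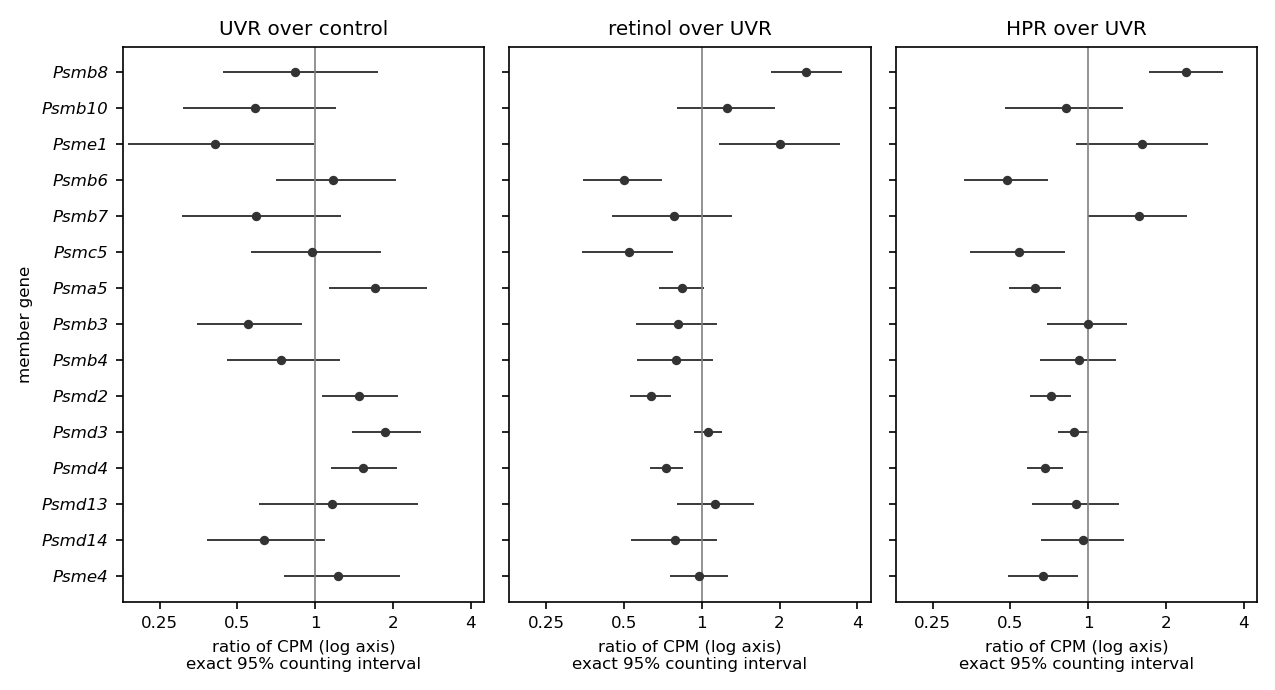
Ratio of CPM between sections for 15 members, on log axes with exact 95% intervals from counting, for UVR over control, retinol over UVR and HPR over UVR. Psmb8 lies at 2.54 and 2.39 in the treatment panels, with Psmb6 and Psmc5 near 0.5, and the intervals against the shallow control section are wider.

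In retinol over UVR, 13 members were tested. Only Psmb8 was at least 1.5-fold higher (14.2% of all 2932 tested genes were), and Psmb6, Psmc5 and Psmd2 were at least 1.5-fold lower (20.5% of genes were). The lower share is close to the background. The median log2 ratio was -0.31 for the members and -0.05 for all genes. Psmc5, an ATPase of the cap, stood at 46, 44.6, 23.3 and 24 CPM in control, UVR, retinol and HPR, with both treated sections below both others. It was 1.91-fold lower with retinol (1.29 to 2.91) and 1.86-fold lower with HPR (1.23 to 2.88). Psmd2 was 1.58-fold lower with retinol (1.32 to 1.9) and Psmd4 1.37-fold lower (1.18 to 1.59). Psmd3 was at 1.06 (0.931 to 1.2), Psmd13 at 1.13 and Psma7 at 1.02, so the cap genes did not all move with Psmd2. The differences of Psmd2 and Psmd4 turned over with the sections read by the spot grid (0.08 and 0.06 on the log2 scale), and that of Psmc5 did not (-0.94), though its ratio of 0.522 then had an interval of 0.272 to 1.04.

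In HPR over UVR, 14 members were tested. Again only Psmb8 was at least 1.5-fold higher (11.1% of all 2813 tested genes were), while Psma5, Psmb6 and Psmc5 were at least 1.5-fold lower (22.9% of genes were). The median log2 ratio was -0.17 for the members and -0.13 for all genes. Psma5 was 1.6-fold lower (1.27 to 2.03), Psmd4 1.47-fold lower (1.25 to 1.73) and Psme4, the activator PA200, 1.49-fold lower (1.1 to 2.05). Psme4 stood at 55.2, 68, 66.4 and 45.6 CPM, lowest with HPR. Psma5, Psme4 and Psmd4 turned over with the sections read by the spot grid (0.52, 0.27 and 0.16 on the log2 scale). Psma4 (27.6, 27.4, 18.4 and 28.8 CPM), Psmb3 and Psmd14 were within 1.1-fold of UVR.

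In HPR over retinol, 7 members were tested and none passed 1.5-fold in either direction, where 5.11% of all 2231 tested genes were higher and 9.14% lower. The members ran from 0.686 for Psme4 (0.485 to 0.964) to 1.15 for Psmb4 (0.769 to 1.73). Psma5 was 1.34-fold lower with HPR than with retinol (1.03 to 1.75) and Psmd3 1.2-fold lower (1.03 to 1.4). The treatments had different strengths, 0.1% and 0.03%, so these are values side by side and no comparison of the compounds.

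Members with fewer than 100 UMIs over the sections compared are given as values only. The assembly chaperone Psmd9, which helps build the ATPase ring, stood at 18.4, 21.1, 9.89 and 8.8 CPM, 2.13-fold lower with retinol than with UVR (1.17 to 4.16) and 2.4-fold lower with HPR (1.24 to 5.09). The ATPase Psmc2 stood at 36.8, 16.4, 7.77 and 23.2 CPM. Psmb2, with 105 UMIs over the 4 sections, stood at 33.7, 23.1, 15.5 and 10.4 CPM. Psme3 (the nuclear activator PA28 gamma) had 2, 23, 4 and 10 UMIs. Psmc3ip had 2 UMIs in all.

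Tissue layers were taken from clusters of spots made without the proteasome and pathway genes. The outer layer is the spots without a fibroblast, muscle or sebaceous signature, rich in keratin genes, the middle layer carries fibroblast and adipocyte markers, and the muscle layer carries skeletal muscle markers. A spot can hold several cells. Outer spots gave 59.3% of the control UMIs and 78.8% to 83.4% of the others. Of the 118 outer control spots, 100 fell in a cluster led by Krt77 and Krt10 that held control spots only, so outer comparisons with control set different clusters side by side.

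The standard members were lower in the outer layer than in muscle in each of the 4 sections. In the outer layer they summed to 987, 1256, 1004 and 961 CPM for control, UVR, retinol and HPR. The ratio of outer to muscle was 0.686 in control (0.507 to 0.941), 0.743 with UVR (0.677 to 0.817), 0.694 with retinol (0.589 to 0.822) and 0.619 with HPR (0.527 to 0.729). The middle layer lay nearer to the outer layer, with outer over middle between 0.836 and 1.09 and every interval including 1.

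Of 16 members with 100 UMIs in outer and muscle spots, 7 were lower in outer spots in all 4 sections (20.3% of all 3260 tested genes were) and 2 were higher (49.5% were). The 7 were Psmb3, Psmb4, Psmb7, Psmc5, Psmd4, Psmd13 and Psme4. Psmd4 differed most evenly. It stood at 385, 485, 403 and 359 CPM in the muscle of control, UVR, retinol and HPR sections, and at 150, 209, 158 and 151 CPM in the outer layer, 2.32-fold to 2.57-fold lower. Psme4 was 1.64-fold to 6.21-fold lower in outer spots, where the 6.21-fold end is control, with 4 outer and 5 muscle UMIs.

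The 2 members with a higher outer level in every section were Psma5 (1.53-fold to 3.42-fold) and, by its counts, Psmb8. Outer Psma5 stood at 87.9, 137, 107 and 87.3 CPM against 25.7, 54.2, 70.2 and 51.2 CPM in muscle. The control muscle value, which sets the 3.42-fold end, rests on 1 UMI. Psmb8 had 89 UMIs (75.8 CPM) in the outer layer of the retinol section and 0 in its muscle, which allows up to 26.3 CPM there. That limit is 2.88-fold below the outer value, whose own counting error (60.9 to 93.3 CPM) is not included. In control it had 4 outer UMIs (20.7 CPM) and 0 in muscle, which allows up to 77.1 CPM, so control does not show which layer was higher. With UVR the outer and muscle levels were 30 and 9.57 CPM, and with HPR 70.1 and 25.6 CPM, the muscle values resting on 3 UMIs each.

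Compared with the middle layer, Psmb8 and Psmb10 were lower in outer spots in all 4 sections, as was Psmb3 (3 of 15 members, where 26.1% of 3128 genes were). Psmd4 was the 1 member higher in all 4 (17.2% of genes were). Outer and middle Psmb8 stood at 20.7 and 89.6 CPM in control, 30 and 47.8 with UVR, 75.8 and 104 with retinol, and 70.1 and 81.7 with HPR. Middle values rest on 5 to 12 UMIs each.

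**Figure D4:**
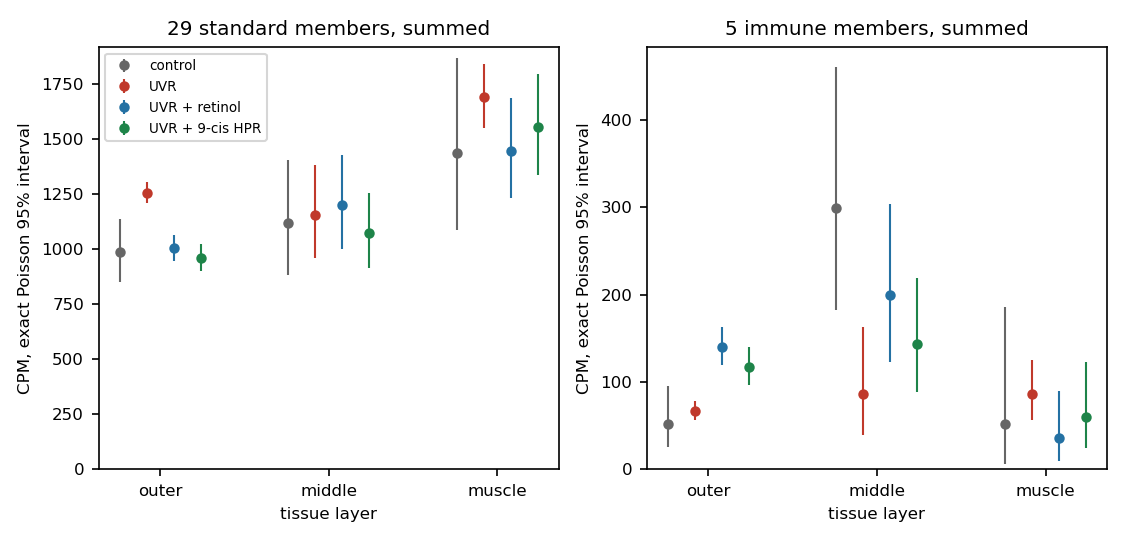
Summed level of the 29 standard members (left) and of the 5 immune members (right) in CPM by tissue layer, with exact Poisson 95% intervals and 1 colour per section. Among the outer, middle and muscle layers the standard sum is highest in muscle in each section, and the immune sum in the outer layer stands at 140 and 117 CPM with retinol and HPR against 66.6 with UVR.

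The immune sum split between layers in the comparison of UVR with control. In the outer layer it stood at 51.7, 66.6, 140 and 117 CPM in control, UVR, retinol and HPR, and UVR over control was 1.29 (0.68 to 2.74), from 10 control UMIs. In the middle layer it stood at 299, 86, 199 and 143 CPM, and was 3.47-fold lower with UVR (1.51 to 8.66), from 20 and 9 UMIs. Psmb10 gave 10 of the 20 UMIs of the control middle layer, at 149 CPM. It was at 0 in the control outer layer, which allows up to 15.5 CPM there. The immune sum was thus lower with UVR in the middle layer, while the outer layer gave a ratio above 1 with an interval that includes 1. The clusters that make up the middle layer were also led by plasma cell genes (Igha and Igkc) and by macrophage genes (Mpeg1, Trem2 and Ctss), and the part of these cells in the result was not tested.

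Both treatments were higher than UVR in the outer immune sum, by 2.1-fold for retinol (1.67 to 2.65) and 1.75-fold for HPR (1.36 to 2.26). In the middle layer retinol was 2.31-fold higher (1.01 to 5.73), and HPR over UVR was 1.66 (0.73 to 4.12). Muscle gave ratios below 1, at 0.407 for retinol (0.104 to 1.17) and 0.694 for HPR (0.255 to 1.63). Those intervals include 1 and rest on 27 UMIs with UVR, 4 with retinol and 7 with HPR. The immune share of the catalytic UMIs in the outer layer was 26.3% in control, 38% with UVR, 74.7% with retinol and 64.5% with HPR. The standard members were 1.25-fold lower with retinol (1.17 to 1.34) and 1.31-fold lower with HPR (1.21 to 1.41) in the outer layer. In the middle layer they gave 1.04 (0.804 to 1.34) and 0.931 (0.73 to 1.19).

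Within the outer layer, with at least 50 UMIs asked of a gene, 14, 16 and 18 members were tested in UVR over control, retinol over UVR and HPR over UVR. Against control, 6 were at least 1.5-fold higher with UVR (32.1% of all genes tested there were), namely Psma5, Psmd2, Psmd3, Psmd13, Psmd14 and Psme4, and Psma7 and Psmb3 were lower (18.3% were). Psmd14 thus stood on opposite sides of control in the whole section and in the outer layer, at 1.56 there (0.584 to 5.9), from 4 control UMIs. With retinol, Psmb8 and Psmb10 were higher (15.5% were) and Psmb6 and Psmc5 lower (22.7% were). With HPR, Psmb7 and Psmb8 were higher (9.81% were) and Psma5, Psmb6, Psmc5 and Psmd2 lower (27.4% were). Outer Psmb10 was 1.71-fold higher with retinol than with UVR (1.02 to 2.86). In HPR over retinol 12 outer members were tested and none passed 1.5-fold, where 6.24% of genes were higher and 14.1% lower. In the middle layer no member reached 50 UMIs except Psmd3 in the HPR comparisons. It stood at 259 CPM with HPR, 1.81 times its UVR level (0.97 to 3.53; 14.8% of genes there were at least 1.5-fold higher and 14.5% lower) and 1.3 times its retinol level (0.745 to 2.34; 8.01% were higher and 8.77% lower).

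The genes that work with the proteasome were read from 4 lists by the same rule over whole sections. Of 13 genes of class I antigen presentation, 8 were tested in each comparison. With UVR 4 were at least 1.5-fold lower than in control (16.8% of all tested genes were) and none higher: B2m (the class I light chain, 4.29-fold, 3.11 to 5.87), H2-K1 (a class I heavy chain, 1.89-fold), Tapbp (tapasin, which loads peptides, 1.76-fold) and Tap2 (a subunit of the peptide transporter, 1.58-fold). The median of the 8 was -0.59 on the log2 scale, against 0.09 for all genes. With retinol 4 were higher than with UVR (14.2% of all tested genes were) and none lower. Pdia3 (a chaperone of peptide loading) was 2.75-fold higher (2.71 to 2.8), Tapbp 2.42-fold, Tap2 2.05-fold and Calr 1.73-fold, with a median of 0.67. With HPR 4 were higher (11.1% of all tested genes were) and none lower, namely Pdia3 (2.2-fold), B2m (2.01-fold), Tap2 (1.75-fold) and Tapbp (1.73-fold), with a median of 0.58. H2-K1 was not among the genes higher with treatment, at 0.775 with retinol (0.648 to 0.924) and 1.1 with HPR (0.935 to 1.3). With the spot-grid reading Pdia3 stayed higher with both treatments, at 1.6 (1.55 to 1.66) and 2 (1.93 to 2.07), and Tap2 and Tapbp gave 1.3 (1.11 to 1.53) and 1.37 (1.23 to 1.53) with HPR. With retinol Tap2, Tapbp and Calr then had intervals that include 1. B2m turned over, to 0.331 with HPR (0.238 to 0.463).

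Of the 15 interferon-gamma response genes, 2 were tested against UVR, and both were at least 1.5-fold higher in both treated sections (14.2% of all tested genes were with retinol and 11.1% with HPR). The transcription factor Irf9 was 2.89-fold (1.97 to 4.3) and 2.59-fold (1.72 to 3.92) higher with retinol and HPR, and Irf8 1.75-fold and 2.12-fold. Under the spot-grid reading Irf8 turned over, to 0.489 (0.313 to 0.777) and 0.403 (0.257 to 0.644), and Irf9 gave 1.14 and 1.28, with intervals that include 1. Irf1 was below the 100 UMI minimum, with 6 UMIs with UVR, 9 with retinol and 4 with HPR. In the outer layer the interferon feedback gene Socs1 was also tested, at 3.76-fold with retinol and 2.01-fold with HPR.

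Of 20 measured genes of proteasome assembly and regulation, 10 were tested against UVR. None was at least 1.5-fold higher with either treatment (14.2% of all tested genes were with retinol and 11.1% with HPR). With each treatment 2 were at least 1.5-fold lower (20.5% and 22.9% of all tested genes were), which is near the background. With retinol Rad23b, a shuttle factor that carries ubiquitinated proteins, was 2.18-fold lower (1.62 to 2.98). With HPR the shuttle factors Ubqln1 (1.82-fold, 1.5 to 2.24) and Rad23b (1.8-fold, 1.35 to 2.44) were lower. In UVR over control 8 were tested, with Rad23b 2.17-fold higher (1.24 to 4.13), the inhibitor Psmf1 1.54-fold higher (0.892 to 2.87) and the segregase Vcp 1.73-fold lower (1.54 to 1.93). Of all tested genes there, 24.4% were at least 1.5-fold higher and 16.8% lower. Nfe2l1, which drives proteasome genes when the proteasome is inhibited, was below the minimum against control and within 1.5-fold of UVR with treatment, at 1.33 (0.929 to 1.89) and 1.48 (1.03 to 2.1). In the outer layer it gave 1.87 (1.13 to 3.09) and 1.85 (1.09 to 3.12). Over whole sections, the spot-grid reading turned Nfe2l1 over with both treatments (0.744 and 0.668), Rad23b with retinol (1.2) and Stub1 with HPR (1.24), while Ubqln1 and Ube2d3 kept their direction. Of 8 measured ubiquitin genes, 3 were tested against UVR, with the conjugating enzyme Ube2d3 1.58-fold lower with retinol (1.34 to 1.86) and the ligase Stub1 2.06-fold lower with HPR (1.39 to 3.13). In UVR over control Stub1 was 1.56-fold higher (0.847 to 3.21). In each of these comparisons 1 of 3 tested ubiquitin genes passed 1.5-fold, too few to set against the shares of all genes given above.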

How the data were processed

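The values analysed are whole-number UMI counts as the authors deposited them, by gene and by spot. The submitters' processing notes name Space Ranger 2.0.0, Seurat 4.1.0 and the build mm10. Libraries were probe-based and made with the kit for fixed tissue from fresh-frozen sections, per the labels' protocols. Members, lists and layer rules were chosen with earlier results of these data known. Spots with at least 200 UMIs were summed per section or layer and scaled to CPM. Ratios carry exact (Clopper-Pearson) 95% intervals, levels exact Poisson intervals, and pair ratios exact conditional intervals of the odds ratio. A gene was called at 1.5-fold with at least 100 UMIs over both sections, 50 within layers, and a count of 0 was taken to allow 3. Named in each comparison were the immune and catalytic genes and the 4 highest and 4 lowest tested members. Spots were clustered with scanpy 1.11.5 (2000 variable genes without members and pathway genes, 20 components, 15 neighbours, Leiden resolution 0.5). A cluster took the muscle, sebaceous or fibroblast layer if that list's median log2 fold was highest and at least 2. The interval and calling steps were tested on simulated data. Both areas share 430 barcodes, which are fixed positions of the grid. Some genes and a motif of the lists are not reported here.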

Additional observations from a re-analysis of the deposited data

How the results depend on the processing

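All values here are log2 ratios unless called counts. The sums over the standard and the immune members kept direction in each comparison with totals without the 50 most abundant genes, with spots of at least 500 UMIs, with all spots over tissue, and on the left or right side of the image alone, except the standard sum of HPR over retinol, near 0 throughout (-0.08 to 0.03), and the layer values did so at Leiden resolution 1.0. Read by the spot grid, every ratio of UVR over control and HPR over retinol is inverted, with -0.23 for the standard and 0.63 for the immune sum of UVR over control. Retinol over UVR moved to -0.11 and 0.09, HPR over UVR to -0.08 and 0.35, and the immune sum of HPR over retinol to 0.25. Among single members these include, in UVR over control, Psma5 (-0.77), Psmb3 (0.87), Psmd2 (-0.56), Psmd3 (-0.90), Psmd4 (-0.62) and Psme1 (1.28). Members that turned over were, in retinol over UVR, Psmd2 (0.08), Psmd4 (0.06) and Psme1 (-0.58), and, in HPR over UVR, Psma5 (0.52), Psmb7 (-1.12), Psme4 (0.27) and Psmd4 (0.16), among those the text names with a difference. In HPR over retinol the inverted values include Psma5 (0.43), Psmb7 (-1.0), Psmd3 (0.26) and Psme4 (0.54). For UVR over control the immune sum was 0.37 in the outer layer alone and -0.01 with layers weighted alike; the cause was not tested. Left-out genes, and the spot-grid reading for other genes, marker lists and pairs, were chosen after seeing the data. Without Psmd2, Psmd3 and Psmd4 the standard sum of UVR over control was -0.16, and without Psmb8 the immune sum was 0.65 for retinol and 0.19 for HPR over UVR. Under the spot-grid reading the retinol and HPR values without Psmb8 turned over. Counts of members past the fold, main 5, 4, 4 and 0 in the order of the comparisons, were 0, 2, 2 and 0 at a fold of 2, 16, 12, 10 and 5 with a minimum of 20 UMIs, and 19, 14, 14 and 13 with a pseudocount of 1 CPM and no minimum, where low counts enter. The share of all genes past the fold was not computed at these altered settings, so these counts cannot be set against a background. The control section, with 363 standard and 35 immune UMIs, sets the width of the intervals of UVR over control. No paired analysis was possible because each group is 1 section.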
